A study of Mus musculus with 8 samples.

Results

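A set of 10 genes that repress the circadian clock or carry its output was described in cardiac fibroblasts of the mouse, which make the matrix of the heart. They are Per1, Per2, Per3, Cry1, Cry2, Nr1d1, Nr1d2, Dbp, Tef and Bhlhe40. They were chosen by name, as the rows of the deposited expression table whose Ensembl mouse gene identifier belongs to these symbols. The choice was made with earlier results of these data known. All 10 were found, each in 1 row, among the 54532 genes of the table.

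The cellular clock is a feedback loop of transcription. CLOCK and BMAL1, the protein made from Arntl, bind E-box sequences and switch on the Per and Cry genes, whose proteins then inhibit that pair. The nuclear receptors NR1D1 and NR1D2 (REV-ERB alpha and beta) repress Arntl, BHLHE40 (DEC1) opposes CLOCK and BMAL1 at E-boxes, and DBP and TEF activate output genes through D-box sequences. Cultured fibroblasts carry this oscillator, glucocorticoid hormones can reset it, and Per1 is a direct target of the glucocorticoid receptor.

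RNA sequencing was run on 8 libraries of total RNA collected at day 7, which form 4 groups of 2. The first group overexpressed EphrinB2, a membrane ligand of Eph receptors encoded by Efnb2, and underwent osteogenic differentiation. The second overexpressed EphrinB2 and was kept in complete medium. The third carried the vector and underwent osteogenic differentiation, and the fourth carried the vector in complete medium. The cells are called EphrinB2 cells and vector cells below, and the 2 culture conditions osteogenic and complete medium. The strain and age of the mice, the type of vector, the promoter driving EphrinB2, the composition of both media and the hour of collection are, in the sources used here, not given. With 1 collection day and no hour, a shift in clock phase and a change in mean level cannot be told apart. The labels do not say whether the libraries of each group stem from separate cultures, so the p-values below reflect only how far these libraries differ, and that spread may be technical.

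Levels are given in FPKM, a unit scaled by exon length and by counted reads, which corrects for gene length and depth. The deposited values correspond to an estimated 16493859 to 20550820 counted reads per library, and the 10 genes to between 86 reads (Dbp, vector cells in osteogenic medium, replicate 2) and 2356 reads (Tef, EphrinB2 cells in complete medium, replicate 2). Vector libraries lay close to their partners, whereas the SD over 12994 genes of the log2 difference between both libraries was 0.66 for the osteogenic pair and 0.52 for the complete-medium pair of EphrinB2 cells, against 0.23 and 0.26 for the osteogenic and complete-medium pairs of vector cells. The libraries that stood apart were 2, replicate 1 of EphrinB2 cells in osteogenic medium and replicate 2 of EphrinB2 cells in complete medium. Efnb2 checked the labels: it had 5.02 and 18.3 FPKM in EphrinB2 cells in osteogenic medium and 31.3 and 32.8 FPKM in EphrinB2 cells in complete medium, against 1.39 and 1.27 FPKM in vector cells in osteogenic medium and 6.30 and 5.56 FPKM in vector cells in complete medium. Its difference between EphrinB2 and vector cells, 2.21 in osteogenic and 2.26 in complete medium on the log2 scale (SE 0.48 each), did not pass the test over all genes (limma, adjusted p = 0.567 and 1). It passed when either osteogenic EphrinB2 library was left out. Without replicate 1 it was 3.05 in osteogenic and 2.26 in complete medium (adjusted p = 0.0146 and 0.0248), and without replicate 2 it was 1.37 and 2.26 (adjusted p = 0.0204 and 0.0238).

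All 9 cardiac fibroblast markers examined, among them Col1a1, Pdgfra and Tcf21, reached 1 FPKM in every library. Cardiomyocyte, mural and adipocyte markers were low: 5 of 6, 3 of 5 and 4 of 4 stayed below 1 FPKM in all libraries, and the cardiomyocyte gene Actn2 was listed at 0 throughout. Of 11 macrophage markers, 9 reached 1 FPKM in every library.

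The loop is known to act through short elements in promoters, and 4 promoter sequences are shown here: those of Per1 and Cry1, which rose in osteogenic medium, of Nr1d1, which fell, and of Per3, whose window holds D-boxes. Each is the 250 bases before a transcription start from RefSeq on GRCm38.p6, read 5′ to 3′ on the gene's strand. Capitals mark the E-box CACGTG in Per1 and Cry1 and the D-box TTATGTAA in Per3. Nr1d1 is shown without capitals because neither motif was found in its window.
Per1, chr11:69098699-69098948, plus strand: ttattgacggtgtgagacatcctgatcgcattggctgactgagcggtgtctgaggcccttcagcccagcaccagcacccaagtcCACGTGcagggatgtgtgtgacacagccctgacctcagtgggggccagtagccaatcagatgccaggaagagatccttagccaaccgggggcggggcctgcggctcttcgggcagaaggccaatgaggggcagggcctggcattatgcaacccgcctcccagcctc
Cry1, chr10:85185055-85185304, minus strand: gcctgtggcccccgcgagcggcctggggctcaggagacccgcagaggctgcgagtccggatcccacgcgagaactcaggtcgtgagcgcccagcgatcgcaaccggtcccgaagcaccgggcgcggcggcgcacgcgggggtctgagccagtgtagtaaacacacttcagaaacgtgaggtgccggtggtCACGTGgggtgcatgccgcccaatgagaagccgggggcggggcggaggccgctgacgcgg
Per3, chr4:151044666-151044915, minus strand: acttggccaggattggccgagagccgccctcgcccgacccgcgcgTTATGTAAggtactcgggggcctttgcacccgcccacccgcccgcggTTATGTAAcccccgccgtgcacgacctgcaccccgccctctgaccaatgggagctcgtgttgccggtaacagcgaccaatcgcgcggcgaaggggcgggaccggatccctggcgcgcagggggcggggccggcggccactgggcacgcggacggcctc
Nr1d1, chr11:98775378-98775627, minus strand: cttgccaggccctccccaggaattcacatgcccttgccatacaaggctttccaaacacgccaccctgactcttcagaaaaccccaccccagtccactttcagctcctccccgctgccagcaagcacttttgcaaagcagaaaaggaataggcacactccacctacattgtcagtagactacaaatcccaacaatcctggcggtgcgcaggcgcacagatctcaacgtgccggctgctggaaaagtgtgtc

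RefSeq windows were found for 8 of the 10 genes, 10 windows in all, with 2 each for Per1 and Tef. Per2 and Bhlhe40 had no window in the table. All motifs were searched on both strands. An E-box, CACGTG, stood in windows of 3 genes, Per1, Cry1 and Tef, at 166, 60, and 127 or 138 bases before the start. These were 4 of the 10 windows, and the other Per1 window, which is not printed, held none. Of 32851 windows of the same length over all genes, 6.02% held an E-box. The D-box, searched as TTANGTAA, stood in Per3 alone among the 8 genes, with copies beginning 205 and 158 bases before the start. At least 1 copy stood in 2.06% of all windows and 2 or more in 0.0731%. The receptor half-site AGGTCA stood in windows of Per1 and Nr1d2 and in 14% of all windows, and the palindrome of the glucocorticoid receptor, AGAACA and TGTTCT spaced by any 3 bases, in none of the 10 windows and in 0.00913% of all. These are matches of letters in a short window and say nothing about binding.

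The main contrast was osteogenic against complete medium, and it split the clock genes by direction. Per1 and Cry1 rose in osteogenic medium, while Nr1d1, Nr1d2, Dbp and Bhlhe40 fell, in EphrinB2 cells and in vector cells alike. Per3 fell in EphrinB2 cells and did not pass the test in vector cells, and Per2, Cry2 and Tef passed in neither. Bhlhe40 moved most, with levels in complete medium 8.49 times those in osteogenic medium in EphrinB2 cells and 7.43 times in vector cells. The direction of all 10 differences was the same in both kinds of cell.

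The test was limma's moderated two-sided test on log2(FPKM + 1), fitted to all 8 libraries and 12994 genes, with p-values adjusted by Benjamini-Hochberg over all of them and a threshold of 0.05. Fold changes on this scale understate the change of low genes. In EphrinB2 cells 2 of the 10 genes rose, beside 6.36% of all tested genes, and 5 fell, beside 5.44%. In vector cells 2 rose, beside 4.41% of all tested genes, and 4 fell, beside 3.11%. In either direction this is 7 of 10 in EphrinB2 cells, beside 11.8% of all tested genes. It is 6 of 10 in vector cells, beside 7.52%, and 6 passed in both with the same sign. The 10 genes were chosen with earlier results of these data known, so these shares are descriptive and no test of enrichment. The median absolute log2 change of the 10 genes was 1.10 in EphrinB2 cells and 1.23 in vector cells, beside 0.39 and 0.23 over all tested genes. The libraries of both media did not overlap for any of the 10 genes in either kind of cell, which was also so for 47.9% of all tested genes in EphrinB2 cells and 73.2% in vector cells.

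How many of these calls hold depends on which libraries set the spread. Fitted to the 4 EphrinB2 libraries alone, Bhlhe40 was the only one of the 10 to pass in EphrinB2 cells (limma, adjusted p = 0.0535 for Nr1d1 and 0.08 for Per1), in a fit that called 1.18% of all genes. Fitted to the 4 vector libraries alone, 4 rose and 5 fell in vector cells, in a fit that called 40.6% of all genes.

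**Figure D1:**
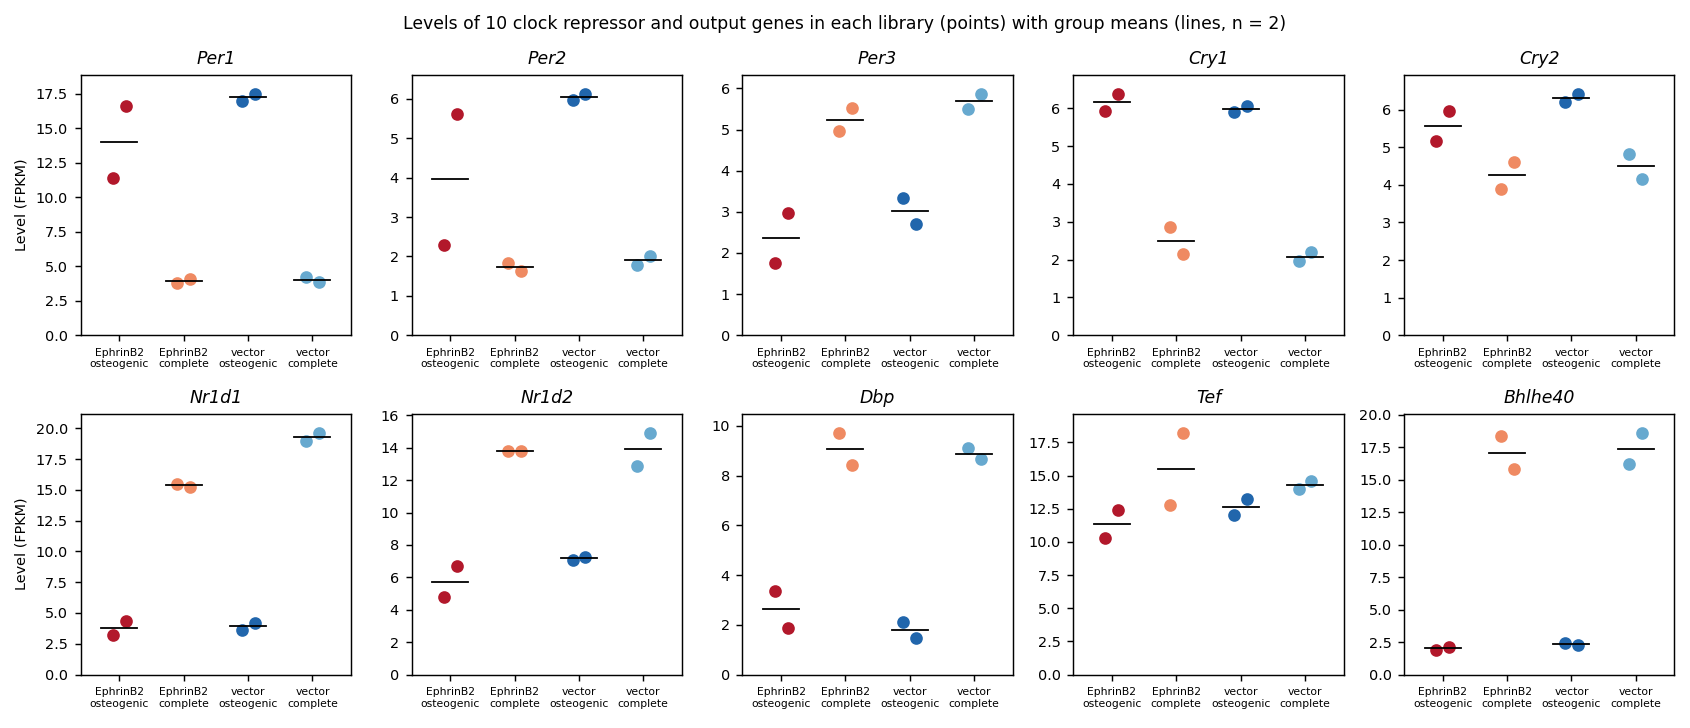
Level in FPKM (vertical axis, from 0, a scale of its own for each gene) of the 10 genes in each library, with groups from left to right EphrinB2 osteogenic, EphrinB2 complete, vector osteogenic and vector complete; points are libraries and lines are means of 2. Per1 lies at 11.4 FPKM or more in all 4 osteogenic libraries and at 4.21 FPKM or less in all 4 complete-medium libraries, and Bhlhe40 shows the opposite order.

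The Per genes encode the PERIOD proteins, which join the CRY proteins to inhibit CLOCK and BMAL1. Per1 (ENSMUSG00000020893, chromosome 11, 69095217 to 69109960, plus strand, GRCm38) had 11.4 and 16.6 FPKM in EphrinB2 cells in osteogenic medium, against 3.81 and 4.11 FPKM in EphrinB2 cells in complete medium. It had 17.0 and 17.5 FPKM in vector cells in osteogenic medium, against 4.21 and 3.86 FPKM in vector cells in complete medium. Every osteogenic library was far above every complete-medium library, and the lowest of the osteogenic libraries was replicate 1 of EphrinB2 cells. Means were 14.0 ± 3.66 FPKM in EphrinB2 cells in osteogenic medium and 3.96 ± 0.216 FPKM in EphrinB2 cells in complete medium (SD, n = 2 each), 3.53-fold higher in osteogenic medium. Vector cells averaged 17.2 ± 0.329 FPKM in osteogenic medium and 4.03 ± 0.248 FPKM in complete medium (SD, n = 2 each), a 4.27-fold difference. Per1 rose by 1.57 in EphrinB2 cells (log2 scale, SE 0.19, limma adjusted p = 0.00393) and by 1.86 in vector cells (SE 0.19, adjusted p = 0.00268). By size it ranked 242 among rises in EphrinB2 cells and 131 in vector cells.

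Per2 (ENSMUSG00000055866, chromosome 1, 91415982 to 91459324, minus strand) is the second PERIOD gene. It had 2.30 and 5.62 FPKM in EphrinB2 cells in osteogenic medium, against 1.83 and 1.62 FPKM in EphrinB2 cells in complete medium. In vector cells it had 5.97 and 6.13 FPKM in osteogenic medium, against 1.79 and 2.02 FPKM in complete medium. Of the 4 osteogenic libraries, 3 lay between 5.62 and 6.13 FPKM, and replicate 1 of EphrinB2 cells in osteogenic medium lay near the complete-medium libraries. The log2 differences of 0.78 in EphrinB2 cells (SE 0.30, limma adjusted p = 0.141) and 1.28 in vector cells (SE 0.30, adjusted p = 0.0538) did not pass. In EphrinB2 cells the value depended on which osteogenic library was kept: the difference was 1.28 without replicate 1 and 0.28 without its partner. In vector cells the difference of 1.28 passed when either osteogenic EphrinB2 library was left out of the shared spread (adjusted p = 0.0022 without replicate 1 and 0.00228 without replicate 2).

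Per3 (ENSMUSG00000028957, chromosome 4, 151003652 to 151044665, minus strand), the third PERIOD gene and the one with the D-boxes printed above, went the other way. EphrinB2 cells had 1.75 and 2.97 FPKM in osteogenic medium, against 4.96 and 5.52 FPKM in complete medium. Vector cells had 3.34 and 2.70 FPKM in osteogenic medium, against 5.51 and 5.87 FPKM in complete medium. All 4 osteogenic libraries were below all 4 complete-medium libraries, so that Per1 and Per3 were ordered oppositely between the media. Per3 fell by 0.92 in EphrinB2 cells (log2 scale, SE 0.20, limma adjusted p = 0.0326), where complete medium had 2.22 times the level of osteogenic medium. In vector cells the difference was -0.74 (SE 0.20, adjusted p = 0.0844). The EphrinB2 call was lost when any 1 library other than replicate 2 of EphrinB2 cells in osteogenic medium was left out, with differences from -0.98 to -0.65 and adjusted p from 0.057 to 0.154. In vector cells Per3 passed when either osteogenic EphrinB2 library was left out (-0.74, adjusted p = 0.0186 without replicate 1 and 0.0187 without replicate 2).

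The CRYPTOCHROME proteins are the main inhibitors of CLOCK and BMAL1, and their genes differed in how far they moved. Cry1 (ENSMUSG00000020038, chromosome 10, 85131700 to 85185064, minus strand) had 5.93 and 6.38 FPKM in EphrinB2 cells in osteogenic medium, against 2.85 and 2.14 FPKM in EphrinB2 cells in complete medium. Vector cells had 5.89 and 6.06 FPKM of Cry1 in osteogenic medium, against 1.95 and 2.19 FPKM in complete medium. The 4 osteogenic libraries lay together within 5.89 to 6.38 FPKM, above the 4 complete-medium libraries, none of which exceeded 2.85 FPKM. Cry1 rose by 1.04 in EphrinB2 cells (log2 scale, SE 0.15, limma adjusted p = 0.00741), a 2.46-fold difference of means, and by 1.19 in vector cells (SE 0.15, adjusted p = 0.00548), a 2.89-fold difference. The vector call was lost when any 1 of the 4 vector libraries was left out, with differences from 1.13 to 1.24 and adjusted p from 0.0654 to 0.0834.

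Cry2 (ENSMUSG00000068742, chromosome 2, 92403646 to 92434043, minus strand) had 5.17 and 5.96 FPKM in EphrinB2 cells in osteogenic medium, against 3.90 and 4.62 FPKM in EphrinB2 cells in complete medium. It had 6.19 and 6.42 FPKM in vector cells in osteogenic medium, against 4.83 and 4.16 FPKM in vector cells in complete medium. The osteogenic libraries lay above the complete-medium libraries by narrow gaps, and neither difference passed: 0.32 in EphrinB2 cells (SE 0.15, limma adjusted p = 0.192) and 0.41 in vector cells (SE 0.15, adjusted p = 0.178). Cry1 was at 1.15 and 1.07 times the level of Cry2 per library in EphrinB2 cells in osteogenic medium, against 0.731 and 0.463 in EphrinB2 cells in complete medium. The same ratio was 0.952 and 0.945 in vector cells in osteogenic medium, against 0.404 and 0.526 in vector cells in complete medium. Both Cry genes thus stood at about equal FPKM in osteogenic medium, and Cry2 was the higher in complete medium.

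Nr1d1 and Nr1d2 encode the REV-ERB receptors, which keep Arntl low by binding receptor half-sites in its promoter. Nr1d1 (ENSMUSG00000020889, chromosome 11, 98767932 to 98775333, minus strand) had 3.21 and 4.37 FPKM in EphrinB2 cells in osteogenic medium, against 15.5 and 15.2 FPKM in EphrinB2 cells in complete medium. It had 3.61 and 4.20 FPKM in vector cells in osteogenic medium, against 19.0 and 19.6 FPKM in vector cells in complete medium. The 4 osteogenic libraries formed a single low band, whereas in complete medium the vector libraries were above the EphrinB2 libraries. Nr1d1 fell by 1.78 in EphrinB2 cells (log2 scale, SE 0.16, limma adjusted p = 0.00158) and by 2.05 in vector cells (SE 0.16, adjusted p = 0.00102). Complete medium had 4.05 times the level of osteogenic medium in EphrinB2 cells and 4.94 times in vector cells. Among falls it ranked 113 in EphrinB2 cells and 30 in vector cells.

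Nr1d2 (ENSMUSG00000021775, chromosome 14, 18204054 to 18239127, minus strand) had 4.76 and 6.68 FPKM in EphrinB2 cells in osteogenic medium, against 13.8 and 13.8 FPKM in EphrinB2 cells in complete medium. Vector cells had 7.09 and 7.24 FPKM of Nr1d2 in osteogenic medium, against 12.9 and 14.9 FPKM in complete medium. It fell by 1.16 in EphrinB2 cells (log2 scale, SE 0.18, limma adjusted p = 0.00954) and by 0.86 in vector cells (SE 0.18, adjusted p = 0.0321). Its libraries in both media lay apart, and the order of Nr1d1 and Nr1d2 turned between the media. Nr1d1 stood at 0.675 and 0.653 times Nr1d2 per library in EphrinB2 cells in osteogenic medium, against 1.12 and 1.10 in EphrinB2 cells in complete medium. The ratio in vector cells was 0.509 and 0.580 in osteogenic medium, against 1.47 and 1.32 in complete medium. Nr1d2 was thus the higher of both in every osteogenic library and Nr1d1 in every complete-medium library. The call of Nr1d2 in vector cells was lost when any 1 vector library or either EphrinB2 library in complete medium was left out (-0.96 to -0.77, adjusted p from 0.0519 to 0.265). In EphrinB2 cells it was lost without replicate 2 of complete medium (-1.16, adjusted p = 0.0533).

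Dbp and Tef encode related transcription factors that activate output genes through D-boxes, and only Dbp passed the test. Dbp (ENSMUSG00000059824, chromosome 7, 45705088 to 45710203, plus strand) had 3.37 and 1.87 FPKM in EphrinB2 cells in osteogenic medium, against 9.71 and 8.41 FPKM in EphrinB2 cells in complete medium. It had 2.12 and 1.48 FPKM in vector cells in osteogenic medium, against 9.11 and 8.67 FPKM in vector cells in complete medium. All osteogenic libraries were low and the 4 complete-medium libraries lay close together. Dbp fell by 1.50 in EphrinB2 cells (log2 scale, SE 0.23, limma adjusted p = 0.00946) and by 1.83 in vector cells (SE 0.23, adjusted p = 0.00548), with means in complete medium 3.46 and 4.93 times those in osteogenic medium. The vector call was lost without replicate 1 or 2 of vector cells in complete medium or replicate 2 of vector cells in osteogenic medium (-1.86 to -1.66, adjusted p from 0.0632 to 0.0714). Dbp shares 539 of its 2993 exon bases with Sphk2 on the opposite strand, and no source used here gives the strand setting of the counting. Sphk2 averaged 8.78 FPKM in EphrinB2 cells in osteogenic medium and 5.43 FPKM in EphrinB2 cells in complete medium. It averaged 8.87 FPKM in vector cells in osteogenic medium and 5.89 FPKM in vector cells in complete medium, the opposite order to Dbp. Nr1d1 shares 263 of 3077 exon bases with Thra on the opposite strand. Thra averaged 12.8 FPKM in EphrinB2 cells in osteogenic medium and 15.8 FPKM in EphrinB2 cells in complete medium. It averaged 13.3 FPKM in vector cells in osteogenic medium and 16.8 FPKM in vector cells in complete medium, the same order as Nr1d1. The part of either overlap in these levels was not tested.

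Tef (ENSMUSG00000022389, chromosome 15, 81802421 to 81826863, plus strand) had 10.3 and 12.4 FPKM in EphrinB2 cells in osteogenic medium, against 12.8 and 18.2 FPKM in EphrinB2 cells in complete medium. Vector cells had 12.0 and 13.2 FPKM of Tef in osteogenic medium, against 14.0 and 14.6 FPKM in complete medium. The osteogenic libraries were the lower ones in both kinds of cell, by gaps no wider than those between partners in EphrinB2 cells. The differences of -0.40 in EphrinB2 cells (SE 0.20, limma adjusted p = 0.214) and -0.17 in vector cells (SE 0.20, adjusted p = 0.779) did not pass, and Tef passed under none of the 18 alternative settings tried. In EphrinB2 cells the difference was -0.64 without replicate 1 of complete medium, -0.17 without replicate 2, and -0.04 without both libraries that stood apart.

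Bhlhe40 (ENSMUSG00000030103, chromosome 6, 108660629 to 108666925, plus strand) encodes DEC1, a repressor that competes at E-boxes and that many stimuli induce. It had 1.86 and 2.16 FPKM in EphrinB2 cells in osteogenic medium, against 18.4 and 15.8 FPKM in EphrinB2 cells in complete medium. It had 2.43 and 2.25 FPKM in vector cells in osteogenic medium, against 16.2 and 18.6 FPKM in vector cells in complete medium. No osteogenic library exceeded 2.43 FPKM and no complete-medium library lay below 15.8 FPKM. Bhlhe40 fell by 2.58 in EphrinB2 cells (log2 scale, SE 0.15, limma adjusted p = 0.000305) and by 2.46 in vector cells (SE 0.15, adjusted p = 0.000359). It ranked 26 among falls in EphrinB2 cells and 17 in vector cells, and it passed under all 18 alternative settings in both.

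**Figure D2:**
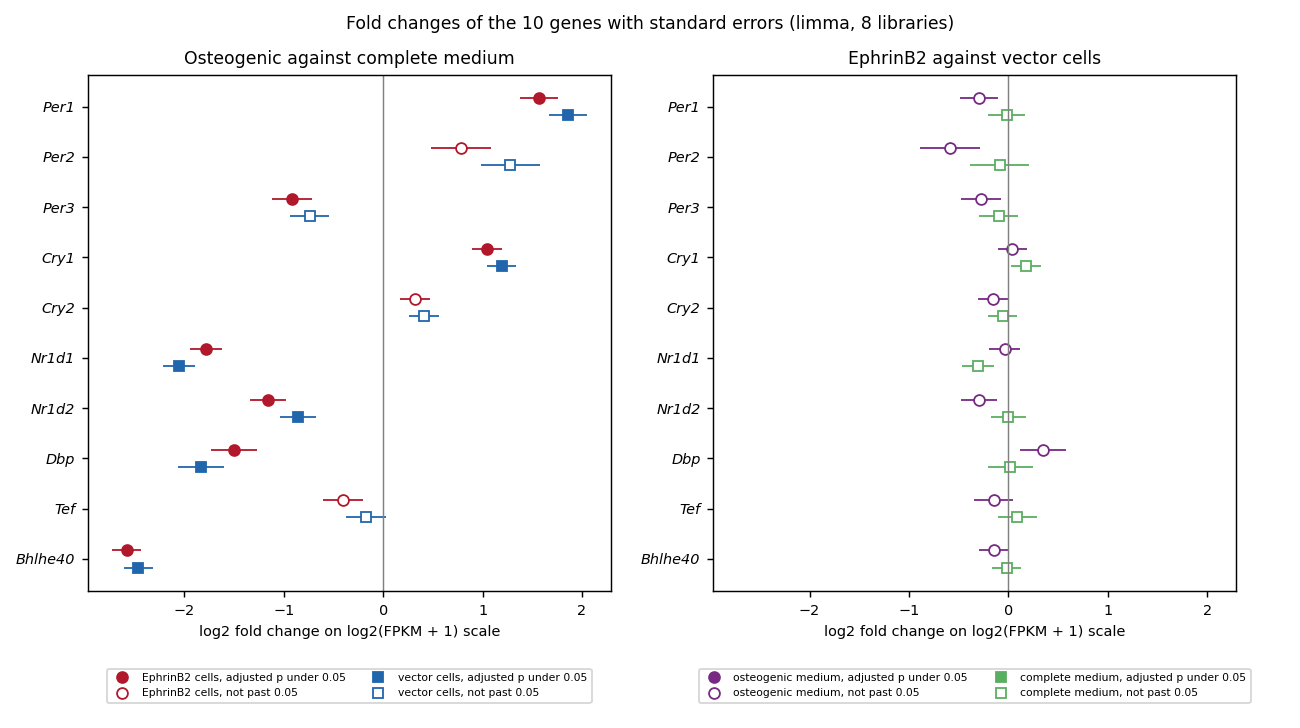
Log2 fold change (horizontal axes, log2(FPKM + 1) scale) of the 10 genes for osteogenic against complete medium on the left (EphrinB2 cells as circles above vector cells as squares) and for EphrinB2 against vector cells on the right (osteogenic medium as circles above complete medium as squares); bars are standard errors and filled symbols passed an adjusted p of 0.05. On the left Per1 and Cry1 lie right of 0 and Nr1d1, Nr1d2, Dbp and Bhlhe40 left of 0 with filled symbols for both kinds of cell, while Per2, Cry2 and Tef are open, and on the right every symbol is open and within -0.59 and 0.35.

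The order of levels among the 10 genes, set on the FPKM scale, which is per length, was rearranged between media. In EphrinB2 cells the log2 difference between partners still varied with exon length (Spearman rho -0.51 for the osteogenic and -0.44 for the complete-medium pair, across genes), so the order there is less certain than in vector cells, where it did not (0.02 and -0.04). In vector cells in osteogenic medium the order by mean was Per1, Tef, Nr1d2, Cry2, Per2, Cry1, Nr1d1, Per3, Bhlhe40 and Dbp, in which only Per2 and Cry1 overlapped as neighbours. Vector cells in complete medium ran Nr1d1, Bhlhe40, Tef, Nr1d2, Dbp, Per3, Cry2, Per1, Cry1 and Per2. There the neighbours Tef and Nr1d2, Cry2 and Per1, and Cry1 and Per2 overlapped. Nr1d1 and Bhlhe40, the highest of the 10 in that group, were among the lowest in osteogenic medium, and Per1 led in osteogenic medium. EphrinB2 cells in osteogenic medium also had Per1 and Tef first, with overlapping libraries, and every pair of neighbours from Cry1 down to Bhlhe40 overlapped. EphrinB2 cells in complete medium had Bhlhe40, Tef and Nr1d1 first, also overlapping, and Per2 last. The ratio of Per1 to Nr1d1 set the media apart: it was 3.55 and 3.80 in EphrinB2 cells in osteogenic medium, against 0.246 and 0.270 in EphrinB2 cells in complete medium. It was 4.71 and 4.16 in vector cells in osteogenic medium, against 0.222 and 0.197 in vector cells in complete medium.

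Summed over the 2 receptor genes, Nr1d1 and Nr1d2 gave 7.97 and 11.0 FPKM in EphrinB2 cells in osteogenic medium, against 29.3 and 29.1 FPKM in EphrinB2 cells in complete medium. The sum was 10.7 and 11.4 FPKM in vector cells in osteogenic medium, against 31.9 and 34.5 FPKM in vector cells in complete medium. The 3 Per genes summed the other way, with 15.5 and 25.2 FPKM in EphrinB2 cells in osteogenic medium, against 10.6 and 11.2 FPKM in EphrinB2 cells in complete medium. Vector cells had 26.3 and 26.3 FPKM of the 3 Per genes in osteogenic medium, against 11.5 and 11.7 FPKM in complete medium. Most of each Per sum in osteogenic medium was Per1.

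The second contrast asked whether EphrinB2 overexpression moved these genes. None of the 10 passed the test between EphrinB2 and vector cells, in osteogenic or in complete medium, and none passed for the interaction of medium and EphrinB2 (limma). In osteogenic medium 0 of the 10 passed, where 0% of all tested genes did, and adjusted p ran from 0.567 to 0.906. In complete medium 0 of the 10 passed, where 0.0077% of all tested genes did, and every adjusted p was 1. Without adjustment, 0 of the 10 had a p under 0.05 in either medium, beside 441 of 12994 genes in osteogenic and 167 in complete medium. The median absolute log2 difference of the 10 was 0.22 in osteogenic and 0.08 in complete medium, beside 0.25 and 0.12 over all tested genes. The comparisons of media and of cells share libraries, so they are not independent of each other.

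The 95% intervals rest on 1 spread per gene shared by all 4 groups, although EphrinB2 partners differed more than vector partners. They are therefore approximate and may be too narrow where a group varied more. In osteogenic medium the difference of EphrinB2 from vector cells was largest for Per2, at -0.59 (log2 scale, 95% interval -1.31 to 0.13), and next for Dbp, at 0.35 (-0.20 to 0.89). Per1 differed by -0.30 (-0.75 to 0.14) and Nr1d2 by -0.30 (-0.72 to 0.13), whereas Cry1 differed by 0.04 (-0.32 to 0.39) and Nr1d1 by -0.04 (-0.43 to 0.35). The libraries of EphrinB2 cells did not overlap those of vector cells for Per1, Per2, Cry2, Nr1d2 and Bhlhe40, all lower in EphrinB2 cells. That is 5 of 10, where 47.9% of all tested genes did not overlap. Replicate 1 of EphrinB2 cells in osteogenic medium, which stood apart, was below its partner for 9 of the 10 genes. The log2 differences were -1.0 for Per2 and -0.50 for Per1. Dbp alone was higher in replicate 1, with 0.60. Over all 12994 tested genes this difference varied with exon length (Spearman rho -0.51), longer genes being lower in replicate 1. Dbp, with 2993 exon bases, is the shortest of the 10. How many of all tested genes were lower in replicate 1 was not counted. The part of this library in the values of the 10 genes was measured by leaving it out: Per2 then differed by -0.09 (adjusted p = 1) and Per1 by -0.05 (adjusted p = 1) between EphrinB2 and vector cells in osteogenic medium. Without its partner instead, Per2 differed by -1.09 (adjusted p = 0.0204) and Per1 by -0.55 (adjusted p = 0.0379), in a fit that called 21.1% of all genes.

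In complete medium only Nr1d1 had libraries that did not overlap between EphrinB2 and vector cells, 1 of 10 where 25.8% of all tested genes did not overlap. It averaged 15.3 ± 0.167 FPKM in EphrinB2 cells and 19.3 ± 0.457 FPKM in vector cells (SD, n = 2 each), a log2 difference of -0.31 (SE 0.16, 95% interval -0.70 to 0.08, limma unadjusted p = 0.0995). The other 9 differed by between -0.10 (Per3) and 0.18 (Cry1). Bhlhe40, the gene that moved most with the medium, differed by -0.02 (-0.38 to 0.33). For the interaction, the differences between the medium effect in EphrinB2 cells and that in vector cells ran from -0.50 for Per2 (-1.52 to 0.52) to 0.32 for Dbp (-0.45 to 1.09), with adjusted p from 0.746 to 0.845. Without adjustment 0 of the 10 had a p under 0.05 for the interaction, beside 214 of 12994 genes. The intervals are wide enough to hold a difference of 1 on the log2 scale for Per2 and Dbp.

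Around the 10 genes, the rest of the loop was examined as a list of activators and a list of further regulators. Of the activator genes, 4 passed the filter on low values and are described here. None of the 4 was called in EphrinB2 cells, and Arntl alone rose in vector cells. Arntl encodes BMAL1, which the REV-ERB receptors repress. It had 3.05 and 3.71 FPKM in EphrinB2 cells in osteogenic medium, against 2.43 and 2.36 FPKM in EphrinB2 cells in complete medium, a log2 difference of 0.36 (SE 0.14, limma adjusted p = 0.133). Vector cells had 3.94 and 4.33 FPKM of Arntl in osteogenic medium, against 2.25 and 2.22 FPKM in complete medium, a rise of 0.67 (SE 0.14, adjusted p = 0.0329). That call was lost when any 1 vector library was left out (0.61 to 0.72, adjusted p from 0.205 to 0.305). Arntl lay higher in all 4 osteogenic libraries than in any complete-medium library. Both Nr1d genes lay low in those osteogenic libraries, and whether this had a part in the level of Arntl was not tested. Clock, its partner, averaged 4.45 ± 2.01 FPKM in EphrinB2 cells in osteogenic medium and 7.59 ± 2.56 FPKM in EphrinB2 cells in complete medium, and 7.00 ± 0.201 FPKM in vector cells in osteogenic medium and 7.19 ± 0.162 FPKM in vector cells in complete medium (SD, n = 2 each). Its libraries overlapped between media in EphrinB2 cells, where the log2 difference was -0.68 (SE 0.30, limma adjusted p = 0.177). That value rested on single libraries: it was -1.06 without replicate 2 of osteogenic medium (adjusted p = 0.0254) and 0.02 without both libraries that stood apart (adjusted p = 0.871).

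Of 16 further regulators, 12 passed the filter on low values, and Hlf, Ciart, Fbxl21 and Usp2 did not. Nfil3 rose in both kinds of cell, none fell, and the other 11 were not called. A count of 1 of 12 is close to the share called over all tested genes, 11.8% in EphrinB2 cells and 7.52% in vector cells. NFIL3 (E4BP4) is a repressor that binds the same D-boxes as DBP and TEF. Nfil3 had 21.8 and 15.7 FPKM in EphrinB2 cells in osteogenic medium, against 6.70 and 6.64 FPKM in EphrinB2 cells in complete medium, a rise of 1.35 (log2 scale, SE 0.18, limma adjusted p = 0.00636). Vector cells had 14.7 and 15.6 FPKM of Nfil3 in osteogenic medium, against 5.98 and 6.95 FPKM in complete medium, a rise of 1.12 (SE 0.18, adjusted p = 0.0153). The vector call was lost when any 1 vector library was left out (1.02 to 1.21, adjusted p from 0.109 to 0.161). The EphrinB2 call was lost in the fit to the 4 EphrinB2 libraries alone (adjusted p = 0.11). Nfil3, the D-box repressor, was set against Dbp, a D-box activator. Their ratio, Nfil3 over Dbp, was 6.48 and 8.40 in EphrinB2 cells in osteogenic medium, against 0.690 and 0.790 in complete medium. It was 6.92 and 10.5 in vector cells in osteogenic medium, against 0.656 and 0.801 in vector cells in complete medium. Nfil3 exceeded Dbp in every osteogenic library, and Dbp exceeded Nfil3 in every complete-medium library. Tef, which also activates through D-boxes, lay above Dbp in every library, with Dbp at 0.112 to 0.758 times the level of Tef. Tef did not pass between media, so the ratio leaves out the D-box activator with the higher level. None of the 16 activators and regulators tested was called between EphrinB2 and vector cells (limma), with 0 at an unadjusted p under 0.05 in either medium.

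**Figure D3:**
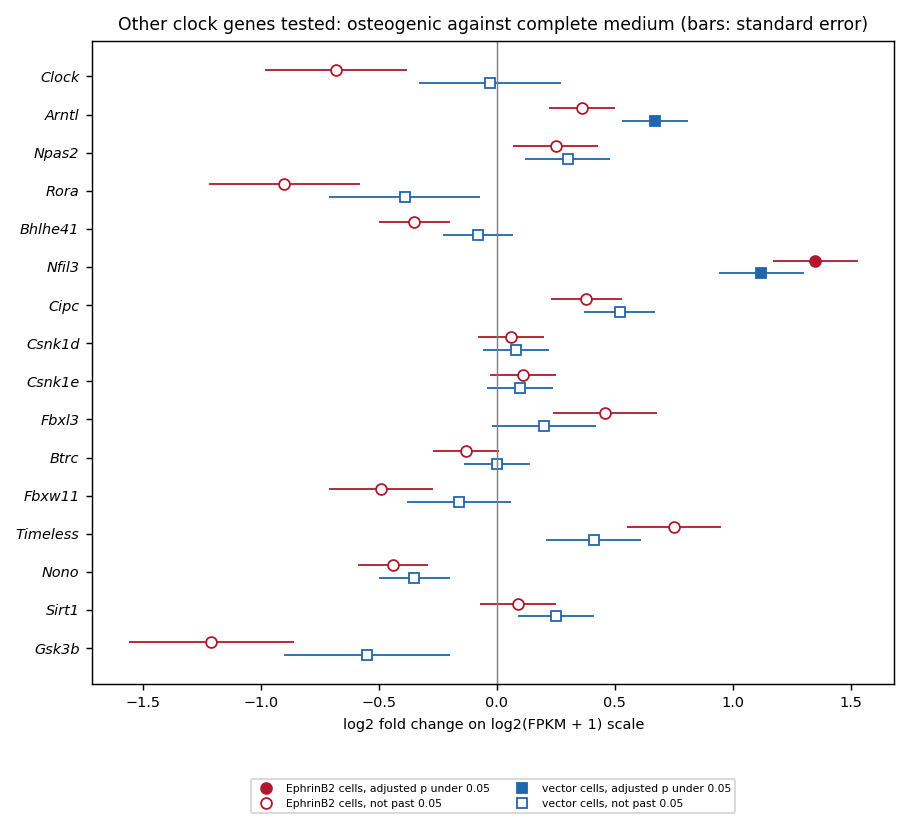
Log2 fold change of osteogenic against complete medium (horizontal axis, log2(FPKM + 1) scale) for the activators and further regulators that passed the filter, with EphrinB2 cells as red circles above vector cells as blue squares; bars are standard errors and filled symbols passed an adjusted p of 0.05. Nfil3 is filled for both kinds of cell and Arntl for vector cells, and all other genes are open.

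Since several of the 10 genes are known to respond to glucocorticoids, 6 response genes and the receptor gene Nr3c1 were measured beside them. Of these 7, 5 rose in EphrinB2 cells, beside 6.36% of all tested genes, and 6 in vector cells, beside 4.41%, and none fell. This list, too, was chosen with earlier results of these data known, so the shares are descriptive only. Fkbp5, which encodes a co-chaperone of the receptor, had 35.8 and 36.7 FPKM in EphrinB2 cells in osteogenic medium, against 1.30 and 1.58 FPKM in EphrinB2 cells in complete medium. It had 35.2 and 36.3 FPKM in vector cells in osteogenic medium, against 1.40 and 1.71 FPKM in vector cells in complete medium. Fkbp5 rose by 3.94 in EphrinB2 cells (log2 scale, SE 0.14, limma adjusted p = 6.42e-05) and by 3.85 in vector cells (SE 0.14, adjusted p = 8.09e-05). Tsc22d3, Klf15, Sgk1 and Zbtb16 rose by 4.20, 3.14, 3.50 and 3.74 in EphrinB2 cells and by 3.63, 2.83, 3.03 and 4.96 in vector cells. Klf9 rose in vector cells (2.18, adjusted p = 0.0431) and differed by 1.26 in EphrinB2 cells (adjusted p = 0.139), where its osteogenic libraries had 27.2 and 87.5 FPKM. Without the first of these, replicate 1, Klf9 differed by 2.09 in EphrinB2 cells (adjusted p = 0.0043), and without the second by 0.44 (adjusted p = 0.106). Zbtb16 had 5.31 and 28.2 FPKM in the same libraries, against 0.0098 and 0.023 FPKM in EphrinB2 cells in complete medium. In vector cells it had 29.4 and 31.1 FPKM in osteogenic medium, against 0 and 0.0102 FPKM in complete medium. With levels this near 0 its log2 difference depends on the pseudocount. Over the alternatives it ran from 1.88 to 6.74 in EphrinB2 cells and from 2.81 to 8.17 in vector cells. The vector calls of Klf9 (adjusted p from 0.198 to 0.255) and Zbtb16 (0.0511 to 0.059) were lost when any 1 vector library was left out. Without replicate 2 of EphrinB2 cells in complete medium the calls of Zbtb16 in EphrinB2 cells (3.75, adjusted p = 0.0803) and of Klf9 in vector cells (2.18, adjusted p = 0.0769) were lost, the second also without its partner (adjusted p = 0.0771). Nr3c1 had 7.94 and 15.7 FPKM in EphrinB2 cells in osteogenic medium, against 22.4 and 28.1 FPKM in EphrinB2 cells in complete medium. It had 15.3 and 15.2 FPKM in vector cells in osteogenic medium, against 23.3 and 23.6 FPKM in vector cells in complete medium, and passed in neither (adjusted p = 0.0585 in EphrinB2 cells and 0.352 in vector cells). In EphrinB2 cells Nr3c1 passed in 3 of the 18 alternatives: with length correction (-0.87, adjusted p = 0.024), without replicate 2 of osteogenic medium (-1.54, 0.00417) and without both libraries that stood apart (-0.49, 0.00746). In vector cells it passed in 5, among them without replicate 1 or replicate 2 of EphrinB2 cells in osteogenic medium (-0.59 each, adjusted p = 0.0457 and 0.0456). The part of these genes in the levels of the clock genes was not tested.

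Marker levels of some cell types moved with the medium too. The 11 macrophage markers summed to 1119 to 2095 FPKM in EphrinB2 cells in osteogenic medium, against 294.8 to 417.9 FPKM in EphrinB2 cells in complete medium. They summed to 1239 to 1344 FPKM in vector cells in osteogenic medium, against 428.6 to 488.1 FPKM in vector cells in complete medium. Of the 11, 10 rose in EphrinB2 cells, beside 6.36% of all tested genes, and 6 in vector cells, beside 4.41%, and none fell. The 9 fibroblast markers summed to 2949 to 3227 FPKM in EphrinB2 cells in osteogenic medium, against 5293 to 6173 FPKM in EphrinB2 cells in complete medium. In vector cells they summed to 2810 to 2874 FPKM in osteogenic medium, against 4994 to 5178 FPKM in complete medium. In both kinds of cell 3 of the 9 fell and 1 rose. Of all tested genes 5.44% fell in EphrinB2 cells and 3.11% in vector cells. Cardiomyocyte markers summed to 8.59 to 15.4 FPKM in EphrinB2 cells in osteogenic medium, against 0.755 to 0.929 FPKM in EphrinB2 cells in complete medium, and to 6.04 to 7.07 FPKM in vector cells in osteogenic medium, against 0.694 to 0.909 FPKM in vector cells in complete medium. Of these 6 genes, 1 rose in both kinds of cell. Of 6 endothelial markers 1 fell and of 4 epicardial markers 1 rose, in both kinds of cell. No mural or adipocyte marker was called. Endothelial sums overlapped between media in EphrinB2 cells, with 8.86 to 12.0 FPKM in osteogenic and 9.53 to 11.2 FPKM in complete medium. In bulk RNA, fewer cells of a type and less RNA per cell cannot be told apart, and the part of the cell mixture in the levels of the clock genes was not tested.

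Genes whose pattern was most like the largest rise and the largest fall were found by the root mean square difference of log2(FPKM + 1), centred over the 8 libraries, among 6660 genes with a mean of at least 5 FPKM. Nearest to Per1 were Emilin2 (0.13), Cd38 (0.13) and Stim1 (0.14). Cd38, an NAD-consuming enzyme of the cell surface, averaged 10.4 FPKM in EphrinB2 cells in osteogenic medium and 2.75 FPKM in EphrinB2 cells in complete medium, and 12.1 FPKM in vector cells in osteogenic medium and 2.55 FPKM in vector cells in complete medium. Nearest to Bhlhe40 were Pcsk5 (0.15), Cdh11 (0.18) and Gdf6 (0.18). Cdh11, a cadherin of mesenchymal cells, averaged 2.56 FPKM in EphrinB2 cells in osteogenic medium and 24.6 FPKM in EphrinB2 cells in complete medium, and 3.11 FPKM in vector cells in osteogenic medium and 21.4 FPKM in vector cells in complete medium. Gdf6, a growth factor of the BMP family, averaged 73.8 FPKM in EphrinB2 cells in osteogenic medium and 352.4 FPKM in EphrinB2 cells in complete medium, and 75.1 FPKM in vector cells in osteogenic medium and 347.1 FPKM in vector cells in complete medium. These genes were selected for their likeness, so it carries no test.

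The calls were recomputed under 18 alternative settings, changing 1 choice at a time, and the direction of the medium difference held for all 10 genes in all of them. In EphrinB2 cells Bhlhe40 passed in 18, Per1 and Nr1d1 in 17 each, Cry1 and Dbp in 16 each and Nr1d2 in 15. In vector cells Per1, Nr1d1 and Bhlhe40 passed in 18, Dbp in 15, Cry1 in 14 and Nr1d2 in 11. Per3 passed in 8 settings in EphrinB2 cells and 6 in vector cells, Per2 in 2 and 7, Cry2 in 2 and 3, and Tef in none. Per1, Nr1d1 and Bhlhe40 were the genes of the 10 whose calls depended least on the setting, and those of Per2, Per3 and Cry2 changed with it.

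**Figure D4:**
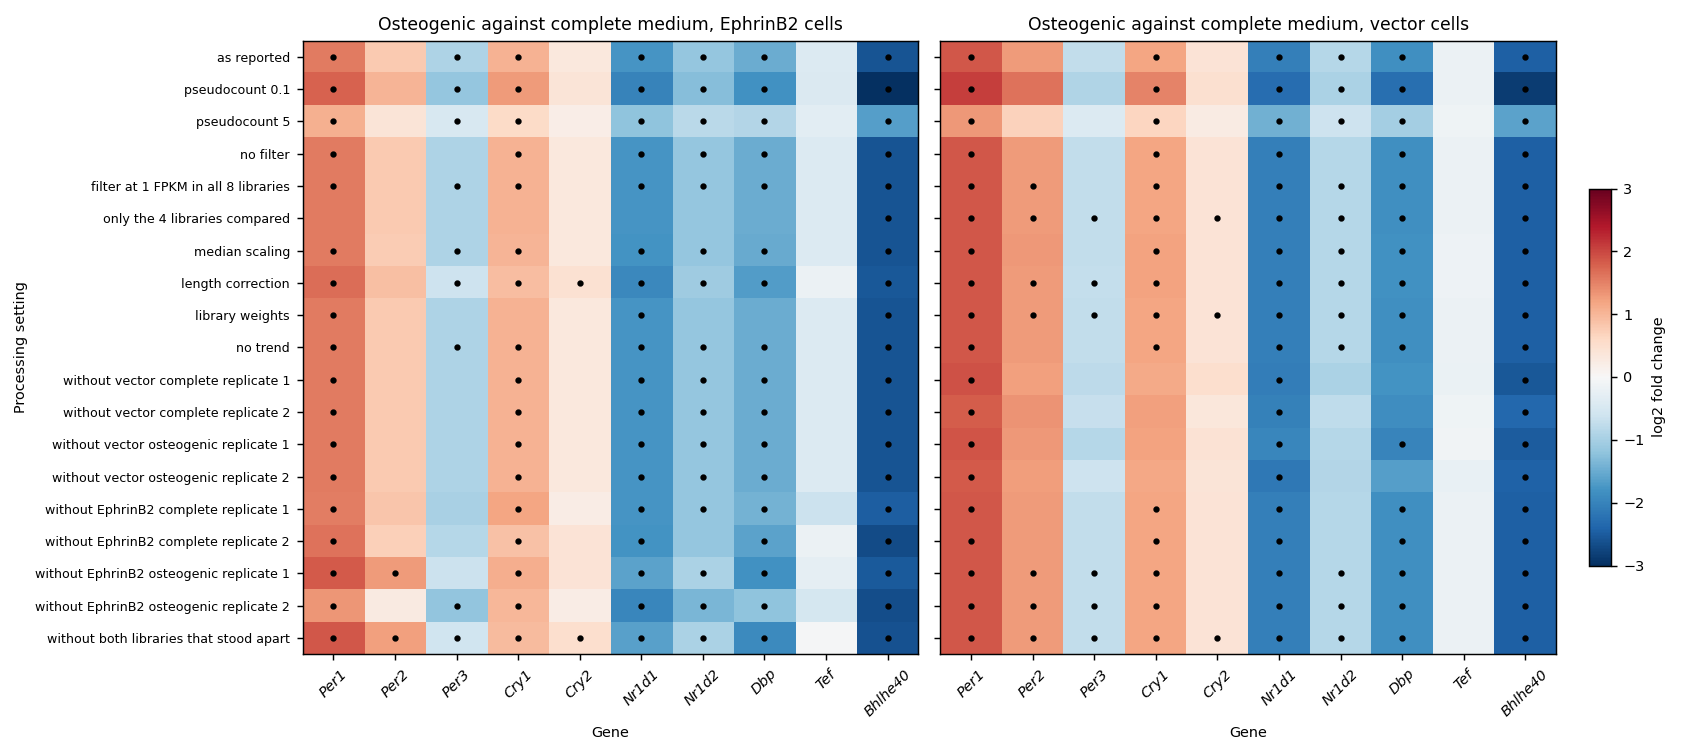
Log2 fold change of osteogenic against complete medium (colour, log2(FPKM + 1) scale, except where a pseudocount of 0.1 or 5 is named) for the 10 genes (horizontal axis) as reported and under each of 18 alternative settings (vertical axis), in EphrinB2 cells on the left and vector cells on the right; black dots mark an adjusted p under 0.05. Every column keeps 1 colour direction, Bhlhe40 carries a dot throughout, and Tef carries none.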

How the data were processed

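RNA was sequenced from 8 libraries of mouse cardiac fibroblasts. The deposited table gives FPKM, which the authors made from the reads by steps for which the submitters' processing notes name DESeq2 1.16.1, featureCounts 1.5.0-p3, HISAT2 2.0.5 and CASAVA, with mm10. Annotation release, strand setting and filters: not given in the sources used here.

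Gene names and exon lengths came from GENCODE M21 (GRCm38, the assembly of mm10), which matched 54495 identifiers and not 37. The step between low FPKM values gave the depth. Values were whole multiples of it, within 0.02, for 98.1% to 98.3% of genes under 50 reads, and read numbers carry counting error only. Without a known strand setting, reads cannot be assigned between antisense partners.

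Genes with at least 1 FPKM in at least 2 libraries were tested, 12994 in all. A single model with a mean per group was fitted to log2(FPKM + 1) in limma 3.58.1 (R 4.3.3), with a mean-variance trend (residual degrees of freedom 4, prior 2.72) and Benjamini-Hochberg adjustment. The model was tested on simulated data with each group's own spread: false calls exceeded the nominal rate in EphrinB2 cells, and most of the smaller changes were missed in every comparison.

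The members and lists were chosen with earlier results of these data known. Named are the 10 genes, Efnb2, called clock genes of both lists, the glucocorticoid genes, and the 3 genes nearest to the largest rise and fall. Clock and the overlapping genes were named after their values were seen. Filters, pseudocounts, scaling, length correction, weights, trend and libraries were varied.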

Additional observations from a re-analysis of the deposited data

How the results depend on the processing

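No paired analysis was possible because the labels give no replicate number, culture or batch that groups share. Leaving out a library puts 1 in its group, and it is then assumed to vary like the others. No direction of a medium difference among the 10 genes reversed under any of the 18 alternatives. In vector cells, 4 of the 10 rose, not 2, with only the 4 libraries compared (5273 genes called, 45.6% of them risen, against 977 and 58.6% as reported), with library weights (5521 called, 48.1% risen) and without both libraries that stood apart (5274 called). Leaving out single libraries gave 1 to 3 risen and 2 to 5 fallen, with 169 to 208 genes called without a vector library and 983 to 1749 without an EphrinB2 library. In EphrinB2 cells, 0 rose and 1 fell with only the 4 libraries compared (153 called, 72.5% risen, against 1533 and 53.9%), 1 rose and 2 fell with library weights (335 called), and 4 rose and 5 fell without both libraries that stood apart (3858 called). Leaving out single libraries gave 3 to 5 fallen, with 635 genes called without replicate 2 of complete medium and 5686 without replicate 2 of osteogenic medium. In vector cells, length correction called 1555 genes and a filter at 1 FPKM in all 8 libraries 648. Settings that fit the vector pairs without the wider spread of the EphrinB2 pairs thus called more genes in vector cells.

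Between EphrinB2 and vector cells in osteogenic medium, leaving out single libraries gave 0 to 2 fallen; without filter 14 genes were called, none of the 10. Uncalled differences also changed sign. Without both libraries that stood apart, they were in complete medium -0.15 (Tef) and 0.08 (Bhlhe40), in osteogenic medium 0.13 (Nr1d1), and for the interaction 0.01 (Per1), 0.15 (Per3), 0.09 (Cry2), -0.07 (Dbp) and 0.13 (Tef). Clock then differed by 0.02 between media in EphrinB2 cells, against -0.68 as reported. With length correction they were -0.09 (Cry1) and 0.04 (Tef) in osteogenic medium, and 0.10 (Per3) and 0.05 (Cry2) for the interaction. Leaving out single libraries gave in complete medium -0.07 to 0.03 (Per1), -0.16 to 0.04 (Cry2), -0.10 to 0.09 (Nr1d2), -0.07 to 0.11 (Dbp), -0.15 to 0.33 (Tef) and -0.13 to 0.08 (Bhlhe40). In osteogenic medium it gave -0.01 to 0.08 (Cry1) and -0.22 to 0.13 (Nr1d1). For the interaction it gave -1.0 to 0.00 (Per2), -0.45 to 0.08 (Per3), -0.29 to 0.00 (Cry1) and -0.19 to 0.01 (Cry2). The causes were not tested. With about 86 reads for the lowest value, depth limits Dbp most.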
